A study of Mus musculus with 12 samples.

Results

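The transcripts of 9 genes of the c-Jun N-terminal kinase (JNK) and extracellular signal-regulated kinase (ERK) cascades were followed in the amygdala of mice that differed in anxiety-like behavior. The genes were the JNKs Mapk8, Mapk9 and Mapk10, the kinases Map2k4 and Map2k7 that phosphorylate them, the ERK Mapk3 and the dual-specificity phosphatases Dusp1, Dusp4 and Dusp6. They were picked by symbol and are 9 of the 47729 genes in the deposited count table. JNK is an imputed node of the study's interaction network, added there to link genes of its signature. None of the 9 passed the adjusted threshold in any comparison of anxiety groups or on any behavior measure. Mapk3 was the member with the clearest order of the groups, and Dusp1 and Dusp6 were the members whose levels ran closest to those of neuronal activity-induced genes.

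The 12 mice were age-matched females of the inbred C57/BL6 strain, without drug or genetic change, and each gave 1 stranded mRNA library from both amygdalae. Each animal took the elevated plus maze, the light/dark box and the three-chamber social interaction test before its brain was taken. The labels place 3 mice in a less anxious, 4 in an anxious and 4 in a more anxious state, and mouse 5 in none. The study cut these states from the second principal component of the same libraries, so that they are no labels independent of expression, and a p-value between them is not one between groups set apart by behavior. Mouse 6, labelled more anxious, had the highest time in light (46.6%), distance in light (41.9%) and open-arm time (29.2%) of the 11 mice. The 7 behavior measures are independent of the libraries. Replicates are separate mice.

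Mitogen-activated protein kinase cascades pass a signal through successive kinases. A MAP kinase kinase phosphorylates a threonine and a tyrosine in the activation loop of its MAP kinase, and dual-specificity phosphatases remove both phosphates. In neurons, ERKs carry synaptic and growth factor signals toward transcription, and JNKs respond to stress and shape neurites and synapses. Phosphorylation sets the activity of these kinases, and transcript levels do not measure it. Several of the phosphatases are themselves immediate early genes, which closes a feedback loop on the kinases.

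Promoter sequence is shown for 3 members. Dusp1 and Dusp6 shared the pattern of the activity-induced genes described further on. Of the members with a RefSeq start site but without that pattern, only Mapk10 held the motif marked below. RefSeq (build GRCm38.p6) held a start site for 7 of the 9 members. Each line gives bases upstream of that start, read 5′ to 3′ on the strand of the gene, with a full cAMP response element (CRE, TGACGTCA, bound by CREB) in capitals. The Dusp1 stretch runs from 250 to 48 bases upstream on the minus strand (chr17:26508520-26508722), and the rest of the window overlaps an annotated exon. The Mapk10 (chr5:103211335-103211584, minus strand) and Dusp6 (chr10:99262981-99263230, plus strand) stretches are the whole 250 bases.
Dusp1: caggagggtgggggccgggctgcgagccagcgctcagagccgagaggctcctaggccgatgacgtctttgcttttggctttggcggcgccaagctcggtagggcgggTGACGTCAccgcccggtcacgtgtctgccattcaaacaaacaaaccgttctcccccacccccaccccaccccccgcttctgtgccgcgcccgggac
Mapk10: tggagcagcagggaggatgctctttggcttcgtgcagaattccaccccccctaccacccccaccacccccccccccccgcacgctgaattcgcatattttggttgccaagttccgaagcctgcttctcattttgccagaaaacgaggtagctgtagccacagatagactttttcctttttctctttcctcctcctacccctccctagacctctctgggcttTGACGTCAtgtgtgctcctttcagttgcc
Dusp6: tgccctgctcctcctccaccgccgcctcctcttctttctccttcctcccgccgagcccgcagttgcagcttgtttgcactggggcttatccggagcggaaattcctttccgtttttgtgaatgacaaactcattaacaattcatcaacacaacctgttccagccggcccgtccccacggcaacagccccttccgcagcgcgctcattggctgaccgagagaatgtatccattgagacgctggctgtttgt
The full CRE stood 143 to 136 bases upstream in Dusp1 and 29 to 22 bases upstream in Mapk10. It was in no window of the other 5 matched members, Dusp6 included. A further Mapk10 window, at another start site, also lacked it. Of 32851 windows of this length, 508 (1.55%) held it. The motif is a palindrome and overlaps the CRE half-site TGACG on both strands, which was in 17.8% of windows. The half-site was also in windows of Mapk8, Mapk9 and Map2k4 and at 191 to 187 bases upstream in Dusp1. It was in no window of Dusp6 or Map2k7. A match describes letters in a window and is no measure of binding.

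Libraries held between 31745630 and 45142355 estimated counts (median 36578626) in the 11 mice with a group. Levels are given as CPM (each count over the library's total, on a fixed scale), with TMM scaling between mice. Markers of neurons, astrocytes, oligodendrocytes and microglia were abundant in every library, and all markers of the basolateral and central amygdala were detected. Levels of striatal and pituitary markers were not uniform between libraries, and the cause was not tested. The summed level of 5 striatal markers ran from 163 to 466 CPM in less anxious, 110 to 222 in anxious and 111 to 336 in more anxious mice, and that of 2 pituitary markers reached 52.1 CPM in mouse 4, against 0.0227 to 0.269 CPM in more anxious mice. In tissue of mixed cells, fewer cells of a type and less RNA per cell cannot be told apart.

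All 9 members were well detected, with the least scatter between mice in Map2k4 and the most in Dusp1. Per kilobase of exon, Mapk3 was the most abundant at 112 CPM per kb (range 73.8 to 143 over 11 mice), followed by Map2k4 at 42.2 (38.6 to 45.8). These ranges overlap neither each other nor that of any other member. Mapk9 at 25.2 and Mapk10 at 25.1 CPM per kb were level with each other, Map2k7 at 18.5 overlapped both, Dusp6 at 12.2 overlapped Map2k7, and Mapk8 at 8.28 just met the lowest Dusp6 mice. Dusp1 at 5.04 lay below all of these, and Dusp4 at 1.86 CPM per kb was the lowest, with an overlap with Dusp1 in the range. The coefficient of variation of CPM over the 11 mice was 4.98% for Map2k4, 9.57% for Mapk9, 9.97% for Mapk8, 10.7% for Map2k7, 15.4% for Mapk3, 16.6% for Mapk10, 28.5% for Dusp1, 22.4% for Dusp4 and 18.5% for Dusp6, compared with a median of 12.5% (quartiles 9.36% and 17.2%) over the 12159 genes with a mean of at least 5 CPM.

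**Figure D1:**
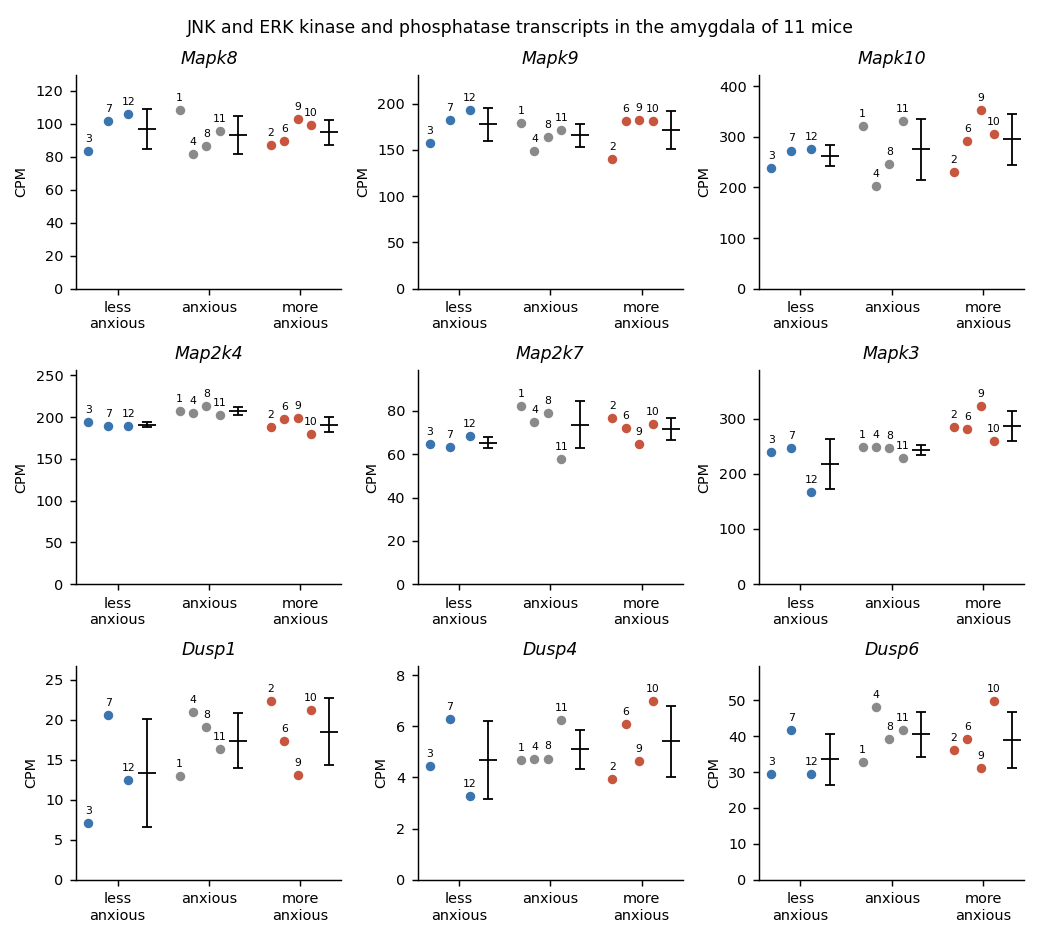
Level of each member in CPM (y axis, from 0) by anxiety group, with 1 point per mouse labelled with its number and the group mean ± SD as a black bar. All 4 more anxious mice lie above the other 7 for Mapk3, all 4 anxious mice lie above the other 7 for Map2k4, and the groups overlap for the other members.

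The values of each JNK transcript overlapped between the 3 groups. Mapk8 (JNK1; 14:33377898-33447158, minus strand, GRCm38), which is widely expressed, measured 83.2, 102 and 106 CPM in less anxious, 108, 81.5, 86.8 and 95.7 CPM in anxious and 87.2, 89.7, 103 and 99.5 CPM in more anxious mice. Mapk9 (JNK2; 11:49846751-49886421, plus strand) measured 157, 182 and 193 CPM in less anxious, 179, 149, 164 and 171 CPM in anxious and 140, 182, 182 and 181 CPM in more anxious mice. In Mapk8 and Mapk9 no group stood apart, and 1 more anxious animal, mouse 2, stood below its group in Mapk9. Mapk10 (JNK3; 5:102907948-103211334, minus strand), the JNK that is largely restricted to the nervous system, measured 239, 273 and 277 CPM in less anxious, 320, 204, 247 and 331 CPM in anxious and 231, 291, 353 and 306 CPM in more anxious mice. Its groups overlapped as well, with the widest scatter of the JNKs. Mapk10 supplied 51.0% of the JNK CPM (SD 2.74, n = 11), Mapk9 31.5% (SD 2.0) and Mapk8 17.5% (SD 1.11), a split by reads rather than by molecules. Mapk10 took 49.0% ± 0.865 (SD, n = 3) in less anxious, 51.1% ± 3.66 (n = 4) in anxious and 52.4% ± 2.10 (n = 4) in more anxious mice. The Mapk10 shares of the more anxious mice (50.3% to 55.3%) lay above those of the less anxious (48.1% to 49.8%). Those of the anxious mice (46.9% to 55.3%) spanned both. Among single genes, 4.49% had more anxious mice wholly above less anxious mice, and no such figure was made for other ratios. The Mapk10 share was not put to a test.

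Group differences were tested with edgeR's quasi-likelihood F-test over 26963 genes, with the first principal component as covariate. For a change anywhere among the groups, 2 genes (0.00742%) passed an adjusted p of 0.05 and 0 of the 9 members did, while 6.35% of genes and 1 of the 9 members, Mapk3, had an unadjusted p under 0.05. Between more and less anxious mice 12 genes (0.0445%) and 0 members passed the adjusted threshold, and 8.84% of genes and again 1 member had an unadjusted p under 0.05. Among members, 6 of 9 had a log2 fold change above 0 with a median of 0.19, beside 50.5% and a median of 0.0036 over all genes tested. More anxious mice lay wholly above less anxious mice in 1 of the 9 members, Mapk3, and in 4.49% of all genes, and wholly below them in 0 members and 3.91% of genes. Anxious against less anxious mice (0.00371% of genes called, 4.74% at an unadjusted p under 0.05) and more anxious against anxious mice (0% of genes called, 4.57% at an unadjusted p under 0.05) called 0 members. DESeq2, run as an alternative, also called 0 members in the tests of any change and of more against less anxious mice.

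The JNK intervals all included 0. The log2 fold change of more over less anxious mice was -0.020 for Mapk8 (95% interval -0.27 to 0.23), -0.049 for Mapk9 (-0.30 to 0.20) and 0.20 for Mapk10 (-0.16 to 0.55). The adjusted p-values of Mapk8 and Mapk9 were 0.985 and 0.951, and both intervals stay within 0.30 of 0 on the log2 scale. The interval of Mapk10 was wider, and its log2 fold change was 0.073 without mouse 3 and 0.35 without mouse 7.

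The 2 JNK-activating kinases differed from each other in scatter. Map2k4 (MKK4, which acts on JNK and p38; 11:65688243-65788297, minus strand) measured 194, 190 and 189 CPM in less anxious, 207, 205, 214 and 202 CPM in anxious and 188, 198, 199 and 180 CPM in more anxious mice. All 4 anxious mice lay above the other 7, a pattern that 0.2% of the genes tested showed, and the less and more anxious groups overlapped. The means were 191 ± 2.63 (SD, n = 3), 207 ± 4.91 (n = 4) and 191 ± 8.89 CPM (n = 4). The edgeR log2 fold change of anxious over less anxious mice was 0.11 (SE 0.081, 95% interval -0.065 to 0.28, unadjusted p = 0.20, adjusted p = 0.987), so that the separation did not exceed the spread the fit assigns to the gene. Map2k7 (MKK7, which acts on JNK; 8:4238740-4247897, plus strand) ranged from 63.2 to 68.2 CPM in less anxious, 57.9 to 82.4 in anxious and 64.8 to 76.5 in more anxious mice, and its log2 fold change of more over less anxious mice was 0.12 (-0.13 to 0.36), or 0.032 with an offset for GC content and 0.018 without mouse 7. Map2k7 shares 1349 exonic bases with Gm49320, so that the division of reads between these genes is uncertain. Gm49320 was assigned 432 reads in total over the 12 mice. The ratio of Map2k7 to Map2k4 CPM was 0.342 ± 0.0158 (SD, n = 3), 0.355 ± 0.0477 (n = 4) and 0.377 ± 0.0397 (n = 4) from less to more anxious mice, with overlapping ranges.

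Mapk3 (ERK1; 7:126759601-126765819, plus strand) had its highest values in the more anxious mice. It measured 239, 247 and 167 CPM in less anxious, 249, 249, 246 and 229 CPM in anxious and 285, 282, 323 and 259 CPM in more anxious mice. The more anxious mice all lay above the other 7, which 0.608% of the genes tested also did, while the less anxious and anxious mice overlapped and mouse 12 was far below the rest. The group means were 218 ± 44.6 (SD, n = 3), 243 ± 9.31 (n = 4) and 287 ± 26.8 CPM (n = 4). The log2 fold change of more over less anxious mice was 0.39 (1.31-fold, SE 0.13, 95% interval 0.11 to 0.67), with an unadjusted p of 0.00957 and an adjusted p of 0.381 by edgeR, and adjusted p-values between 0.148 and 0.610 in the other settings with all 11 mice. It therefore did not pass.

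The Mapk3 difference moved with single libraries. Without mouse 12, the log2 fold change was 0.24 (unadjusted p = 0.0486, adjusted p = 0.636 by edgeR), and without mouse 7 it was 0.54 (unadjusted p = 0.00504, adjusted p = 0.448). These were the lowest and highest values over 11 removals. In each removal the unadjusted p by edgeR was under 0.05 and the adjusted p was at least 0.288. Mouse 12 also held the highest summed striatal (466 CPM) and oligodendrocyte (3242 CPM) markers and the lowest excitatory neuron markers (2708 CPM) of the 11. Mapk3 is rich in G and C, at 57.6% of its exonic bases (percentile 90.9 of expressed genes), and an offset for GC content brought the log2 fold change to 0.28 (unadjusted p = 0.0349, adjusted p = 0.610). Cell type markers also moved with the groups. All 19 markers of astrocytes, oligodendrocytes, their precursors, microglia and endothelial cells had a log2 fold change below 0 between more and less anxious mice (median -0.17, with 6 at an unadjusted p under 0.05 and 0 past the adjusted threshold), while the neuronal markers Rbfox3 (0.30) and Snap25 (0.31) and the excitatory marker Slc17a7 (0.44) were above 0. Syt1 (0.03) and Camk2a (0.04), of the same neuronal lists, were near 0. The remaining excitatory marker, Slc17a6 (-0.09), and the 3 inhibitory markers were below 0. The part of tissue makeup in the Mapk3 difference was not tested.

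**Figure D2:**
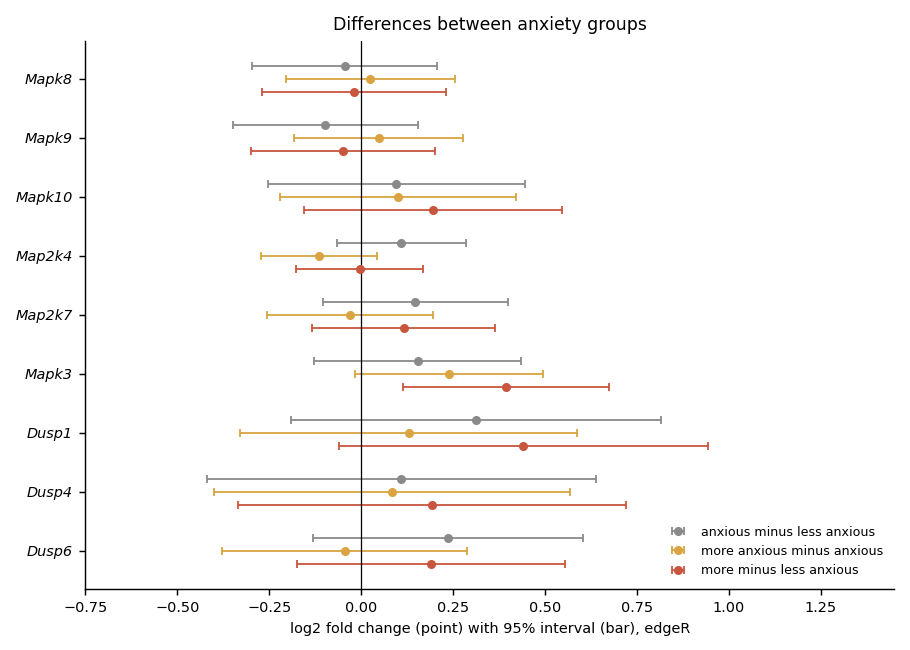
Log2 fold change (x axis) of each member for the 3 pairs of groups, as points with 95% intervals from edgeR. Of the 9 members only Mapk3 has an interval that leaves out 0, for more minus less anxious mice (0.11 to 0.67).

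The phosphatases had wide intervals. Dusp1 (MKP-1, a nuclear immediate early phosphatase of JNK, p38 and ERK; 17:26505590-26562128, minus strand) measured 7.14, 20.5 and 12.5 CPM in less anxious, 13.0, 21, 19.1 and 16.4 CPM in anxious and 22.3, 17.3, 13.1 and 21.2 CPM in more anxious mice. The groups overlapped across most of the range, and mouse 3 held the lowest value of the 11, 3.12-fold under the highest. The log2 fold change of more over less anxious mice was 0.44 (SE 0.23, 95% interval -0.061 to 0.94, unadjusted p = 0.0797, adjusted p = 0.632 by edgeR). It was 0.24 without mouse 3 (adjusted p = 0.804), 0.28 without mouse 10 (adjusted p = 0.819) and 0.71 without mouse 7 (adjusted p = 0.609).

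Dusp6 (MKP-3, a cytoplasmic phosphatase selective for ERK; 10:99263231-99267489, plus strand) measured 29.4, 41.8 and 29.4 CPM in less anxious, 32.9, 48.2, 39.3 and 41.8 CPM in anxious and 36.1, 39.1, 31.2 and 49.8 CPM in more anxious mice, with groups that overlapped. Its log2 fold change of more over less anxious mice was 0.19 (-0.17 to 0.56, adjusted p = 0.810), and 0.0037 without mouse 10 or 0.36 without mouse 7. Dusp4 (MKP-2, a nuclear phosphatase of ERK and JNK; 8:34807297-34819894, plus strand) was the member with the fewest reads, at 3.28 to 6.30 CPM in less anxious, 4.69 to 6.25 CPM in anxious and 3.92 to 6.98 CPM in more anxious mice. Its log2 fold change was 0.19 with an interval from -0.34 to 0.72 (adjusted p = 0.887 by edgeR), which holds differences of either sign, and it was 0.0019 without mouse 12, 0.011 without mouse 10 and 0.57 without mouse 7.

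Behavior was compared with each member as a log2 slope per SD of the measure, without a covariate. Of 63 slopes (9 members, 7 measures), 0 passed the adjusted threshold and 2 had an unadjusted p under 0.05, both of Dusp1 on the box:zone ratio of the social test, in which the box stands for direct and the zone for distant contact with a stranger mouse. The share of genes called was 0.00742% for time in light, 0% for distance in light, open-arm time and total entries, 0.015%, 0.0111% and 0.0223% for the social ratio after 3, 5 and 10 min, and the share in that order with an unadjusted p under 0.05 was 3.55%, 5.8%, 5.84%, 6.97%, 7.65%, 6.56% and 8.05%. The Dusp1 slope was -0.30 (SE 0.12, unadjusted p = 0.0268, adjusted p = 0.555 by edgeR) on the 10 min ratio and -0.27 (SE 0.12, unadjusted p = 0.0395, adjusted p = 0.741) on the 5 min ratio.

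That slope rested on 1 animal. Mouse 3 had both the lowest Dusp1 (7.14 CPM) and the highest 10 min ratio (2.62), and without it the slope was -0.026 (SE 0.090, unadjusted p = 0.774, adjusted p = 0.999) at 10 min and -0.051 (unadjusted p = 0.585, adjusted p = 0.998) at 5 min. Among the other 10 mice the ratio ran from 0.495 to 1.58 while Dusp1 ran from 12.5 to 22.3 CPM, and mouse 2 had both the lowest ratio and the highest Dusp1. With ranks in place of ratios the 10 min slope was -0.17 (unadjusted p = 0.188).

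In the elevated plus maze, the slopes on total entries nearest the unadjusted threshold were those of Mapk3, at -0.13 per SD (95% interval -0.26 to 0.0051, adjusted p = 0.732 by edgeR), and Mapk9, at 0.089 (-0.00086 to 0.18, adjusted p = 0.720). The member slopes on open-arm time lay between -0.11 (Mapk3) and 0.042 (Mapk9). On the light/dark box they lay between -0.14 and 0.060 for time and between -0.23 (Dusp1) and 0.056 for distance in the light.

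**Figure D3:**
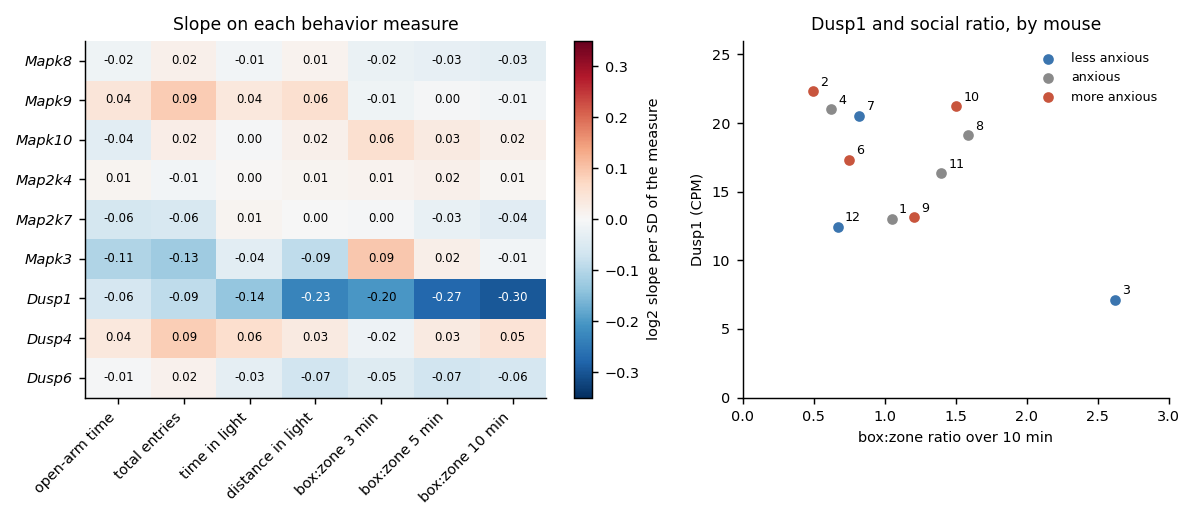
Left, log2 slope per SD of each of 7 behavior measures (columns) for each member (rows), as color and number, with the most negative slopes in Dusp1 on the social ratios at 5 and 10 min. Right, Dusp1 in CPM (y axis, from 0) against the 10 min box:zone ratio (x axis), 1 point per mouse, colored by group and numbered, with mouse 3 alone at the lower right (7.14 CPM, ratio 2.62).

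Across the 11 mice the levels of the JNKs ran with each other, and Dusp6 ran with both other phosphatases. Pearson's r of log2 CPM over the 11 mice was 0.80 for Mapk8 with Mapk9 (Spearman's rho 0.76), 0.78 for Mapk8 with Mapk10 (rho 0.73) and 0.75 for Mapk9 with Mapk10 (rho 0.58). Ranked by likeness to Mapk8, Mapk9 was at place 43 and Mapk10 at place 60 of 12158 other genes. In likeness to Mapk9, Mapk10 was at place 263. Without the 2 mice farthest from the median, the same r values were 0.71, 0.62 and 0.50. Dusp6 had r = 0.79 with Dusp1 (rho 0.74, and r = 0.72 without mice 3 and 12). With Dusp4 it had r = 0.70 (rho 0.84, and r = 0.46 without mice 10 and 12). Dusp6 was at place 195 in likeness to Dusp1 and at place 48 in likeness to Dusp4. The pairing of Dusp1 with Dusp4 was looser (r = 0.38, rho 0.44), as was that of Map2k4 with Map2k7 (r = 0.23, rho 0.28). These values describe 11 libraries that differ in depth and in levels of cell type markers, and they were not tested.

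The level of Dusp1 ran with those of the activity-induced genes over the 11 mice. Its nearest genes among 12159 were Nfkbia, the inhibitor of NF-kappa-B (r = 0.98, n = 11), and Nr4a1, an immediate early nuclear receptor (r = 0.97). Over a list of 12 activity-induced genes (Fos, Fosb, Junb, Egr1 to Egr4, Arc, Ier2, Nr4a1, Npas4 and Btg2), the median r with Dusp1 was 0.89 (0.66 to 0.97), compared with 0.012 over all genes of that level. Dusp6 had a median r of 0.75 (0.52 to 0.91) with the list and Dusp4 one of 0.38 (0.17 to 0.51). The central 95% of all genes of that level had r from -0.73 to 0.76 with Dusp1. For Dusp6 this span was -0.57 to 0.63, and for Dusp4 it was -0.48 to 0.55, which holds the Dusp4 list median. The kinases lay nearer to the median of all genes, from -0.12 for Mapk10 to 0.26 for Map2k7. The nearest gene to Dusp6 was Egr2, an activity-induced zinc finger factor (r = 0.91).

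Mouse 3, the animal lowest in Dusp1, was also lowest in all 12 genes of that list, as 16.3% of the 12159 genes were. Fos measured 4.28 CPM in mouse 3 and 7.09 to 42.9 CPM in the other 10 mice, and Nr4a1 19.1 CPM beside 30.4 to 74.6 CPM. Both were below every other animal there. Mouse 3 also had the highest astrocyte marker sum (2515 CPM) of the 11, the fewest genes with a read (26378, against 27101 to 28196) and the lowest count-weighted GC content (49.4%). The part of these in its low values was not tested.

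**Figure D4:**
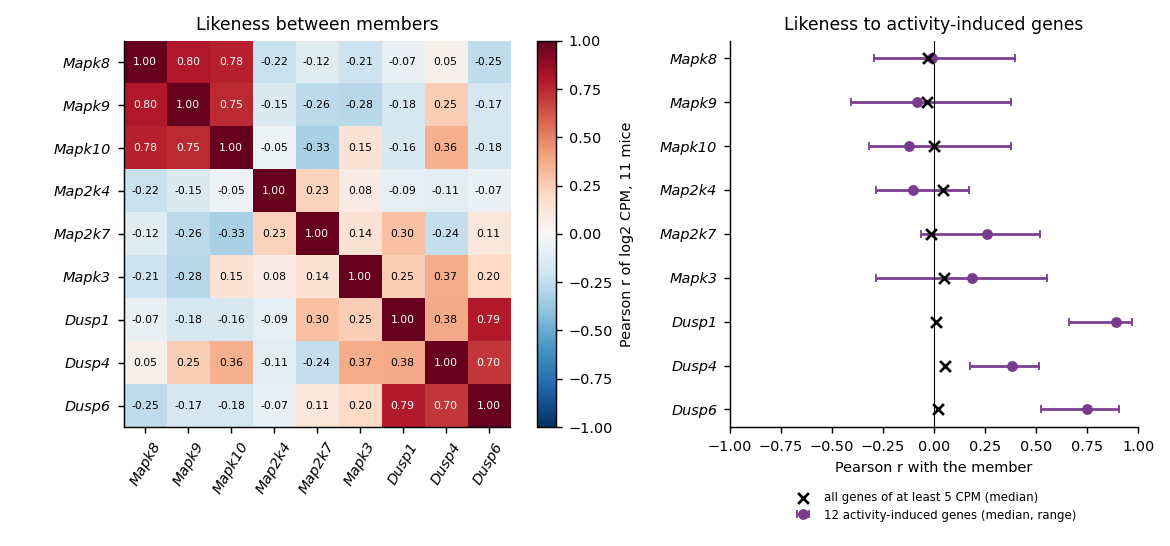
Left, Pearson's r of log2 CPM over 11 mice between each pair of members, as color and number, with high values among the 3 JNKs and between Dusp6 and the other phosphatases. Right, for each member (rows) the median and range of r with 12 activity-induced genes (points and bars) and the median r with all genes of at least 5 CPM (crosses), where Dusp1 (0.89) and Dusp6 (0.75) stand to the right.

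The nearest genes of the other members included no gene of that list. They were Vti1a (r = 0.96), a SNARE, and Pdcd6ip (0.91) for Mapk8, Ankfn1 (0.93) for Mapk9, and Vapb (0.94) and Tspyl1 (0.93) for Mapk10. For Map2k4 they were Bckdk (0.85) and Gstm7 (0.84), and for Map2k7 Lgr5 (0.91) and Gm7329 (0.86). Mapk3 was nearest to Gm12013 (0.95) and Rex1bd (0.92), and Dusp4 to Zfp324 (0.93) and Tecpr2 (0.91). The second gene for Dusp6 was Mycn (0.87). Each is a top match out of 12159 genes searched over 11 mice, and these r values were not tested.

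The rest of the JNK pathway held the only gene of these lists past the adjusted threshold. Of 18 genes of upstream kinases, scaffolds and targets, 1 was called between more and less anxious mice. Jund, an AP-1 subunit of the Jun family, rose from 50.2 ± 8.68 (SD, n = 3) over 74.7 ± 13.5 (n = 4) to 116 ± 22.6 CPM (n = 4), a log2 fold change of 1.18 (SE 0.17, adjusted p = 0.0389 by edgeR). The adjusted p of Jund was 0.0545 without the covariate and 0.104 with the GC offset, which also lowered its log2 fold change to 0.67. It was not called either without robust estimation (adjusted p = 0.0656), or when any 1 of mice 2, 3, 4, 7, 8, 11 and 12 was left out, with adjusted p-values up to 0.242 (without mouse 7) and log2 fold changes between 0.96 and 1.27 over all removals. At an unadjusted p under 0.05 the JNK list had 3 higher genes, Jund, Jun (0.58, the AP-1 subunit that JNK phosphorylates) and the mixed-lineage kinase Map3k9 (0.26), and 1 lower, the scaffold Spag9 (-0.23). Its median log2 fold change was 0.067.

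The ERK list had 2 of 31 genes higher and 0 lower at an unadjusted p under 0.05, the GTPase Hras (0.32) and the Ras-ERK inhibitor Spred2 (0.22), with a median of -0.017. Of 12 other dual-specificity phosphatases 2 were higher, Dusp7 (0.53), which acts on ERK, and Dusp3 (0.24). Styx, an inactive phosphatase of that list, had reads in only 3 mice and gives no fold, and without it the median of the other 11 was 0.098. The p38 and ERK5 list had 1 of 10 higher, the p38 kinase Mapk11 (0.36), with a median of 0.10. The activity-induced list had 2 of 12 higher, Egr4 (1.18, adjusted p = 0.174 by edgeR) and Junb (1.10, adjusted p = 0.359), with 10 of 12 above 0 and a median of 0.46. The shares of all genes at this threshold were 5.21% higher and 3.62% lower. DESeq2 called Egr4 (adjusted p = 0.000912) and Junb (adjusted p = 0.00693) among 304 genes. Mouse 3, lowest in all 12 activity-induced genes, is 1 of only 3 less anxious mice. Without it the list median was 0.22 with 8 of 12 above 0, Egr4 was 0.96 and Junb 0.84, and the GC offset brought Egr4 to 0.64 (adjusted p = 0.466).

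Most of these list genes lost an unadjusted p under 0.05 when some single mouse was left out, though all kept their direction there and with the GC offset. Of the 11 named, 6 had an unadjusted p under 0.05 with the GC offset and 4 (Jund, Jun, Egr4 and Junb) in every removal of a mouse. Dusp7 was 0.26 without mouse 9 (unadjusted p = 0.140), Hras 0.19 without mouse 9, and Map3k9 0.12 with the GC offset (unadjusted p = 0.286) and 0.17 without mouse 3.

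**Figure D5:**
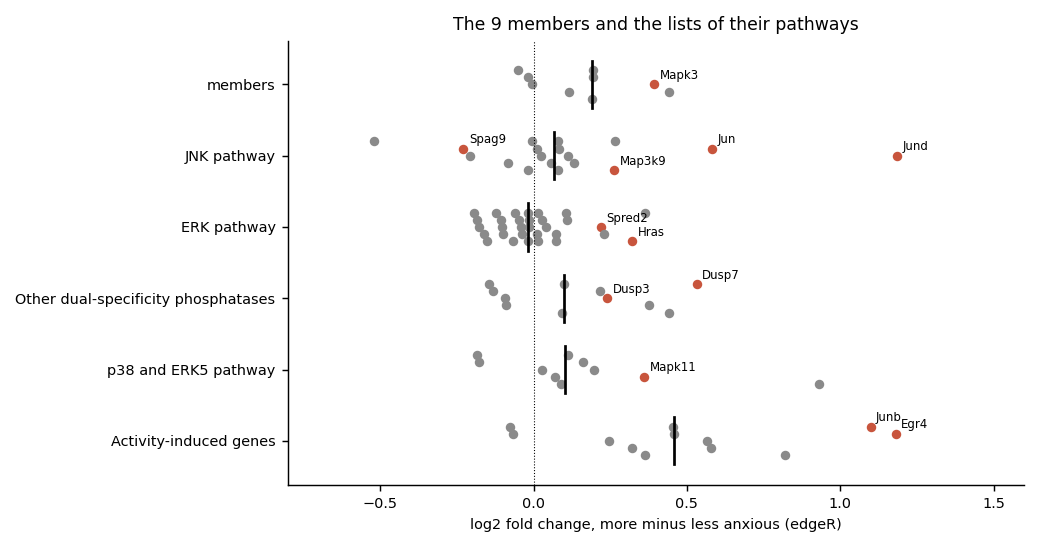
Log2 fold change of more minus less anxious mice (x axis, edgeR) for the 9 members and 5 pathway lists (rows), 1 point per gene, with the list median as a black line and genes with an unadjusted p under 0.05 in red and named. Jund at 1.18 lies farthest right, and Styx, with 0 reads in every less anxious mouse, is not drawn.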

How the data were processed

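Amygdala mRNA of 12 mice was sequenced in 1 run of single-end 75 bp reads. Per the study's methods, cutadapt removed adapters where present, STAR alignments to mm10 served quality control, and Salmon abundances were collapsed per gene by tximport. The authors deposited estimated counts, rounded to whole numbers and not normalized (0 values were not whole). Versions, annotation release and strand setting are not given in the sources used here. The labels also name CASAVA and DESeq2. Gene names and exon lengths came from GENCODE M21 (GRCm38), and promoter windows from RefSeq.

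Tests used edgeR 4.0.16 in R 4.3.3 (quasi-likelihood, robust, TMM, Benjamini-Hochberg adjustment over all genes with at least 10 reads in total), with DESeq2 1.42.0 as an alternative. Tables and plots used Python 3.11.15, pandas 2.3.3, numpy 2.4.6, scipy 1.17.1 and matplotlib 3.10.9. The group fit had PC1 as a covariate, after the study's methods. Log2 CPM used a prior count of 2. Procedures were tested on simulated data. Alternatives were other size factors, no count filter, DESeq2, no covariate, plain instead of robust estimation, a GC offset, ordered groups, ranked measures, the addition of mouse 5 and the removal of single mice.

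The members and lists were chosen with earlier results of these data known. Named were all members, up to 3 higher and 3 lower genes of each list with the smallest unadjusted p under 0.05, members with such a p on a behavior measure, and the 2 genes of at least 5 CPM most like each member by Pearson's r. Some items under this rule are not reported here. Fos, whose values are given beside Dusp1, was named outside this rule after their values were seen.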

Additional observations from a re-analysis of the deposited data

Results flagged for a closer look

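Within the groups of 4 mice, 3 of 18 sets of member values had 1 mouse whose gap to its nearest neighbor exceeded Dixon's 95% critical value (0.829 of the range), where chance gives about 1 in 20. Mapk9 was 140 CPM in mouse 2, with the other more anxious mice reaching up to 182 CPM. Mapk3 was 229 CPM in mouse 11, the lowest of the anxious mice, which reached up to 249 CPM. Dusp4 was 6.25 CPM in mouse 11, the highest of the anxious mice, whose lowest was 4.69 CPM.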

How the results depend on the processing

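For any change, for more against less anxious mice and for the 7 behavior measures, 0 members were called under every alternative. The other pairs of groups were not refitted. The number of genes called for any change was 2, and 9 without the count filter, 187 with DESeq2, 0 without PC1, 1 without robust estimation, 22 with ordered groups and 0 to 4 with 1 mouse left out. Between more and less anxious mice it was 12, and 25, 304, 3 and 2 under the first 4 of these, 3 with the GC offset and 0 to 24 with 1 mouse left out. On behavior, the count for time in light (2) was 4 without the filter, 5 with DESeq2, 0 with ranks, 1 with mouse 5 and 0 to 16 on leaving out a mouse. For distance in light (0) it was 22 with DESeq2 (0 to 14 on leaving out a mouse), for open-arm time (0) 1 with DESeq2 size factors, without the filter and with mouse 5, and 43 with DESeq2 (0 to 3), and for total entries (0) 38 with DESeq2 (0 to 5). For the box:zone ratio at 3 min (4) it was 11 without the filter and 165 with DESeq2 (1 to 6), at 5 min (3) 7, 43, 0 with ranks and 6 with mouse 5 (1 to 5), and at 10 min (6) 10, 111 and 0 with ranks (1 to 9). Of 153 member fold values 141 kept direction and side of the threshold and 12 changed sign, all near 0. Mapk8 was 0.033 with the GC offset (-0.14 to 0.073 on leaving out a mouse), Mapk9 ran from -0.13 to 0.038 on leaving out a mouse, and Map2k4 was 0.0011 without the filter, 0.00016 without PC1 and 0.031 with the GC offset (-0.034 to 0.025). Members with an unadjusted p under 0.05 for any change numbered 1, and 0 with the GC offset or without mouse 9 and 2 without mouse 6. The causes were not tested. All 54 member group means in other scalings stayed within 1 SD. No paired analysis was possible because replicate numbers only name mice within a group. Groups of 3 and 4 mice limit precision most for Dusp4, the member with the fewest reads.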

Other observations

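Mouse 5, which the labels place in no anxiety group, lay inside the range of the other 11 mice for 8 of the 9 members when all 12 libraries were scaled together. Mapk8 was the exception, at 151 CPM beside 81.5 to 108 CPM. The study set this animal aside as an outlier of its PCA. Its library detected 23768 genes beside 26378 to 28196 in the rest. Its Dusp1 was 19.4 CPM, its Mapk3 249 CPM and its Mapk10 312 CPM.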
